A study of Mus musculus with 8 samples.

Results

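The genes described here are 39 that carry the hypoxia response and glycolysis of the tumors, taken from a fixed list of symbols. The list was chosen with earlier results of these data known. They comprise 22 glycolysis genes (3 transporters, 16 enzyme genes and 3 regulators), 15 other targets of the hypoxia-inducible factors (HIF), and the HIF alpha subunit genes Hif1a and Epas1. All 39 were present among the 35458 genes of the deposited files, and 38 of them were among the 15207 genes that passed the filter on low counts. Car9 did not pass it.

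RNA libraries were made from 8 subcutaneous tumors of A/J mice, each raised by injecting 1000000 cells of Neuro-2a (N2A), a single established mouse neuroblastoma line, so that a tumor holds N2A cells together with cells of the host mouse. The SR59230A group comprised 4 tumors (numbered 1 to 4) from mice that received the compound SR59230A intraperitoneally at 10 mg/kg, 2 times a day from the time a mass could be felt. The vehicle group comprised 4 tumors (numbered 0 to 3) from mice given the vehicle alone by the same route, and all mice were killed after 8 days of treatment according to the methods of the study. The labels do not say whether each tumor came from a separate animal, so the p-values measure only the spread between these tumors. Both groups shared the host strain and the injected line, with no genetic change in either. The study describes its RNA sequencing as duplicates, whereas 4 tumors per group are labelled, and the tumors numbered 1 and 2 were therefore also compared apart from the others.

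Glycolysis converts glucose to pyruvate through a chain of enzymes, several of which exist as isozymes from separate genes, and lactate dehydrogenase turns the pyruvate into lactate when it is not passed to the mitochondria. In low oxygen the HIF alpha proteins escape hydroxylation by prolyl hydroxylases, pair with ARNT and bind hypoxia response elements in genes for glucose uptake, glycolysis, blood vessel growth, mitophagy and collagen hydroxylation. HIF alpha is controlled mainly at the level of the protein, so the response is usually read from its target genes. Solid tumors, neuroblastoma included, are known for hypoxic regions and for high glycolytic activity.

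Estimated reads per tumor ran between 23484190 and 43675495 in the SR59230A group, and between 28614914 and 44045575 in the vehicle group. The libraries differed in several ways that move with some results below. Mitochondrially encoded genes took 3.61, 1.54, 7.47 and 3.16% of the reads in SR59230A tumors 1 to 4, against 3.10, 1.39, 1.30 and 6.11% in vehicle tumors 0 to 3. The satellite-like transcripts of Gm10800 and 3 related genes took 1.16, 0.021, 2.46 and 19.8% of all TPM (a count divided by transcript length and scaled to 1000000) in SR59230A tumors 1 to 4, against 26.1, 0.534, 0.0624 and 16.6% in vehicle tumors 0 to 3. Of 10 neuroblast markers, 9 were detected in every tumor, with summed levels of 498 to 665 CPM (counts per 1000000 reads, scaled between libraries) in SR59230A tumors and 632 to 886 CPM in vehicle tumors. The 9 skeletal muscle markers summed to 2246, 191, 28.9 and 10.4 CPM in SR59230A tumors 1 to 4 and to 7.12 to 9.35 CPM in vehicle tumors. In such bulk samples, fewer cells of a type and less RNA per cell cannot be told apart.

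No member passed the test between SR59230A and vehicle tumors, although most of the glycolytic enzymes had a fold change slightly below 0. Among the 16 enzyme genes, 15 had a log2 fold change (SR59230A over vehicle) below 0, with a median of -0.22. Of all 22 glycolysis genes, 19 lay below 0, with a median of -0.13. Of all 15207 genes tested, 50.4% had a fold change below 0 and the median was -0.0017. The 14 tested HIF targets were lower in 11 cases, with a median of -0.19, which was 0.00019 without vehicle tumor 3 as described below. Over the whole list, 31 of 38 members lay below 0 and 7 above, with a median of -0.16 and a range of -0.75 to 0.15, and 27 of 38 lay within 0.25 of 0. Among the 5584 genes with an average of at least 5 log2 CPM, 51.6% lay below 0.

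A gene was called when its adjusted p was under 0.05 and its log2 fold change at least 0.5 in size. By edgeR's quasi-likelihood test with Benjamini-Hochberg adjustment 0 of 38 members were called, and 0 of 15207 genes (0.0%), with members' adjusted p of 0.998 or above. DESeq2 called 37 of 16791 genes (0.22%), of which 0 were members; the smallest adjusted p of a member by DESeq2 was 0.581, for Aldoa. At an unadjusted p under 0.05 by edgeR, 5 of 38 members were lower and 0 higher, against 4.58% of all genes in either direction (2.43% lower and 2.14% higher). These were Pfkl, Aldoa, Mxi1, Hk2 and Eno1, 4 of them glycolytic enzymes. In no member did all SR59230A tumors lie below or above all vehicle tumors, an arrangement found in 1.29% (below) and 1.32% (above) of all genes.

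**Figure D1:**
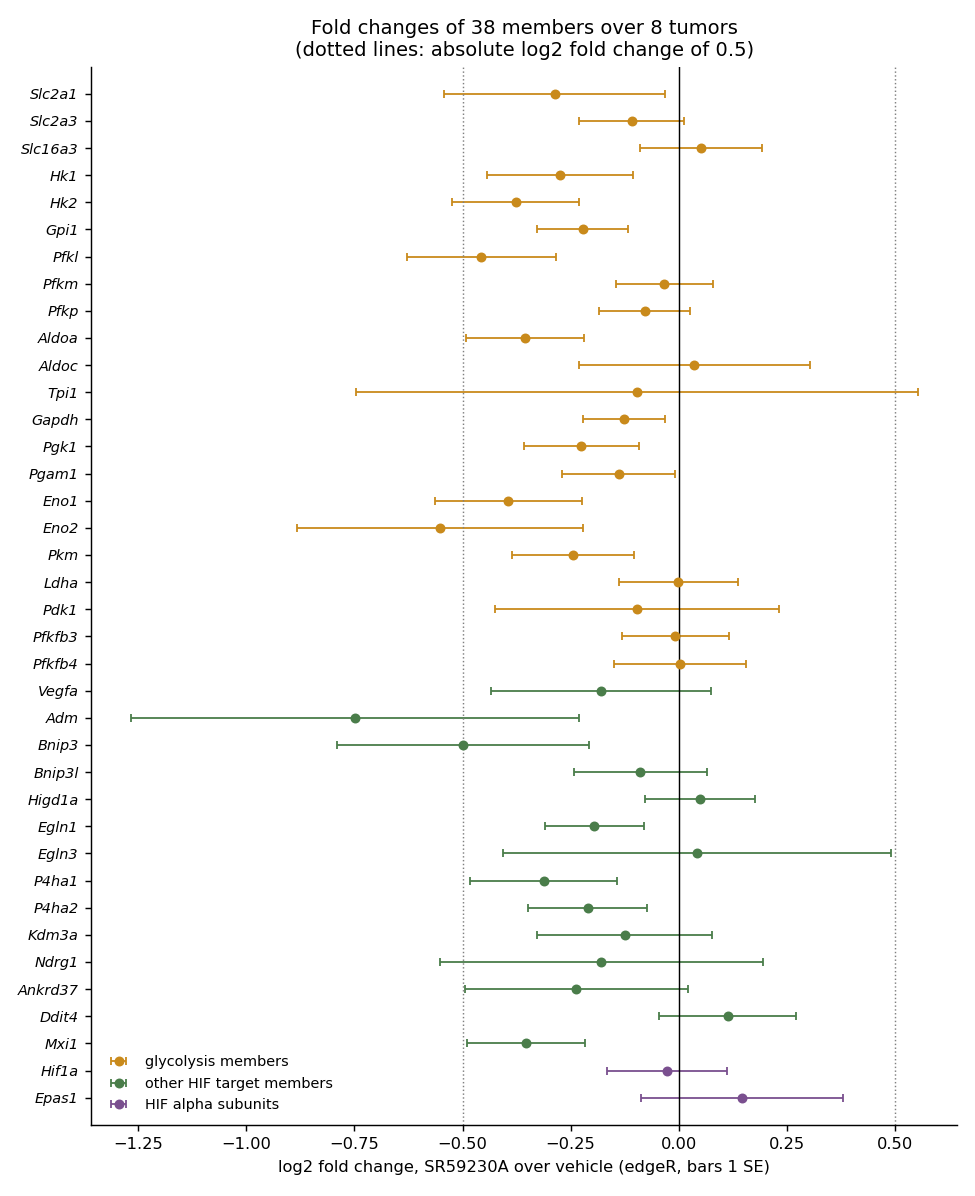
Log2 fold change of SR59230A over vehicle (horizontal axis, edgeR, bars 1 SE) for the 38 tested members, from glucose transport at the top to the HIF alpha subunits at the bottom. The points of 31 members lie left of 0, those of Eno2 and Adm lie beyond -0.5, and the widest bars belong to Tpi1, Adm and Egln3.

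Glucose enters the cell through the facilitative transporters GLUT1 (Slc2a1) and GLUT3 (Slc2a3), and lactate leaves through MCT4 (Slc16a3). Slc2a1 had 13.5, 20.2, 22.9 and 17.3 CPM in SR59230A tumors 1 to 4, against 29.4, 14.4, 17.4 and 29.0 CPM in vehicle tumors 0 to 3. Vehicle tumors 0 and 3 were the highest of the 8 and vehicle tumors 1 and 2 lay inside the SR59230A range, giving a log2 fold change of -0.29 ± 0.26 (SE). Slc2a3 ranged over 291 to 397 CPM, with a fold change of -0.11 ± 0.12 (log2, SE). Slc16a3 ranged over 238 to 349 CPM, with a log2 fold change of 0.051 ± 0.14. The groups overlapped for all 3 transporters.

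Hexokinases trap glucose as glucose 6-phosphate, with Hk1 the widely expressed form and Hk2 a form induced by insulin and HIF. Hk2 (chr6:82725025-82774454, GRCm38) had 79.8, 90.8, 61.0 and 74.8 CPM in SR59230A tumors 1 to 4, against 121, 87.8, 95.3 and 93.4 CPM in vehicle tumors 0 to 3. Only SR59230A tumor 2 reached into the vehicle range, above vehicle tumor 1, and SR59230A tumor 3 was the lowest. The means were 76.6 ± 12.4 CPM in SR59230A tumors and 99.5 ± 14.9 CPM in vehicle tumors (SD, n = 4 each), a log2 fold change of -0.38 ± 0.15 (edgeR unadjusted p = 0.0278; exact two-sided permutation p = 0.0571, the smallest this design allows being 0.0286). For Hk1 the fold change was -0.27 ± 0.17 on the log2 scale, with levels of 113 to 188 CPM in SR59230A tumors and 159 to 202 CPM in vehicle tumors.

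Glucose 6-phosphate isomerase (Gpi1) makes fructose 6-phosphate, which the phosphofructokinases (Pfkl, Pfkm and Pfkp, named for liver, muscle and platelet) commit to glycolysis. Gpi1 had 360.4, 421, 363 and 409 CPM in SR59230A tumors 1 to 4, against 485, 442, 472 and 413 CPM in vehicle tumors 0 to 3. SR59230A tumor 2 lay above vehicle tumor 3, and otherwise the groups did not overlap. The log2 fold change was -0.22 ± 0.11 (edgeR unadjusted p = 0.0599).

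Pfkl (chr10:77986947-78010083) showed the smallest unadjusted p of the list. It had 111, 130.1, 71.2 and 103 CPM in SR59230A tumors 1 to 4, against 159, 134, 152 and 126 CPM in vehicle tumors 0 to 3. Again SR59230A tumor 2 alone reached the vehicle range, above vehicle tumor 3, while SR59230A tumor 3 was far below the rest. The means were 104 ± 24.6 CPM in SR59230A tumors and 143 ± 15.3 CPM in vehicle tumors (SD, n = 4 each), a log2 fold change of -0.46 ± 0.17 (edgeR unadjusted p = 0.0239, adjusted p = 0.998). Without SR59230A tumor 3 the log2 fold change was -0.32, the smallest on leaving out any single tumor.

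The other phosphofructokinase genes differed less. Pfkp had 197, 199.6, 188 and 193 CPM in SR59230A tumors 1 to 4, against 209, 196, 182 and 235 CPM in vehicle tumors 0 to 3. Its vehicle tumors held both the highest and the lowest value, with a log2 fold change of -0.079 ± 0.11. Pfkm, the muscle form, had a log2 fold change of -0.033 ± 0.11 over 55.7 to 71.7 CPM.

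Aldolase splits fructose 1,6-bisphosphate, and Aldoa is the form of muscle and most dividing cells. Aldoa (chr7:126795234-126800751) had 601, 742, 565 and 652 CPM in SR59230A tumors 1 to 4, against 905, 778, 900.0 and 693 CPM in vehicle tumors 0 to 3. SR59230A tumor 2 overlapped vehicle tumor 3, and the other SR59230A tumors lay below all vehicle tumors. The log2 fold change was -0.36 ± 0.14 (edgeR unadjusted p = 0.0254; exact two-sided permutation p = 0.0571). SR59230A tumor 1, which had the most muscle reads, had 766 estimated reads on a second Aldoa transcript (Aldoa-210), against 74.9 to 412 in the other tumors, beside 20438 reads on the main transcript there. Without SR59230A tumors 1 and 2 the Aldoa log2 fold change was -0.43. The brain form Aldoc was at 5.21 to 11.6 CPM with a fold change of 0.036 ± 0.27 on the log2 scale.

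**Figure D2:**
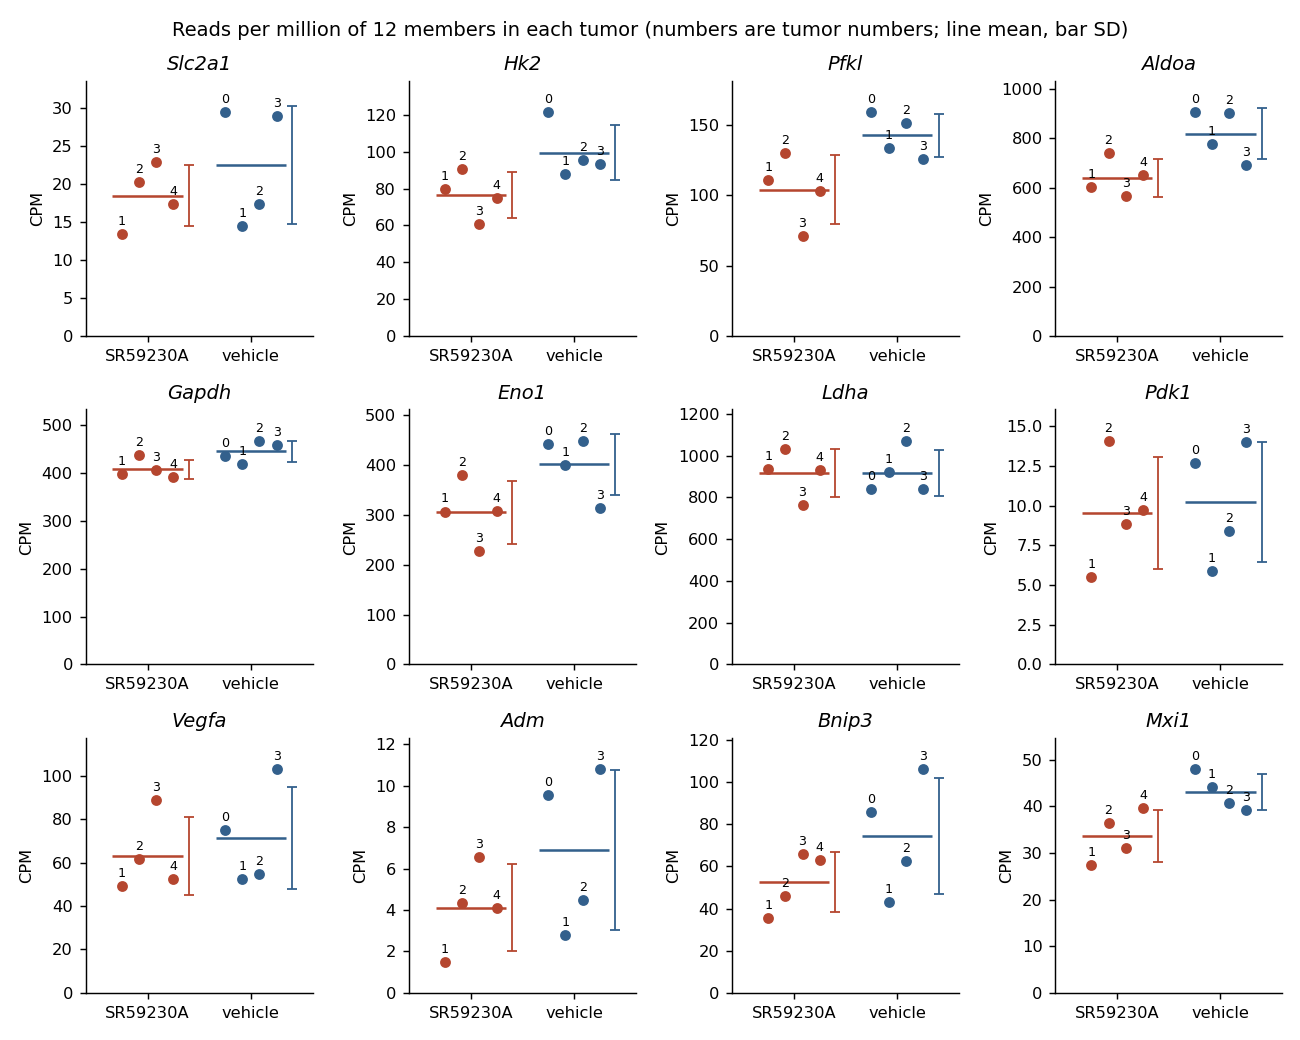
Scaled counts (CPM, vertical axes starting at 0) of 12 members in each SR59230A tumor (left, red) and vehicle tumor (right, blue), with tumor numbers, group means (lines) and SD (bars, n = 4 each). SR59230A tumor 3 was the lowest of the 8 tumors for Hk2, Pfkl, Aldoa, Eno1 and Ldha, and vehicle tumors 0 and 3 the highest for Slc2a1, Adm and Bnip3.

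In the lower part of the pathway, Gapdh and Pgk1 carry the steps that yield NADH and the first ATP. Gapdh had 397, 436, 405 and 391 CPM in SR59230A tumors 1 to 4, against 434, 419, 467 and 458 CPM in vehicle tumors 0 to 3. SR59230A tumor 2 lay above vehicle tumors 0 and 1, and the highest value was only 1.19 times the lowest. The log2 fold change was -0.13 ± 0.095, or 0.0062 from protein-coding transcripts alone. Pgk1 had 245, 297, 216 and 224 CPM in SR59230A tumors 1 to 4, against 289.8, 282, 327 and 249 CPM in vehicle tumors 0 to 3. Only SR59230A tumor 2 reached the vehicle range, and the log2 fold change was -0.23 ± 0.13. Pgam1, the mutase of the next step, had a log2 fold change of -0.14 ± 0.13 over 242 to 371 CPM.

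Enolase makes phosphoenolpyruvate, and Eno1 is its ubiquitous and Eno2 its neuronal form. Eno1 (chr4:150236721-150248879) had 307, 381, 227 and 307 CPM in SR59230A tumors 1 to 4, against 442, 401, 449 and 314 CPM in vehicle tumors 0 to 3. SR59230A tumor 2 lay above vehicle tumor 3, SR59230A tumor 3 was the lowest and vehicle tumors 0 and 2 the highest. The log2 fold change was -0.39 ± 0.17 (edgeR unadjusted p = 0.0432). For Eno2 it was -0.55 ± 0.33, with levels of 20.5 to 56.5 CPM in SR59230A tumors and 35.9 to 70.4 CPM in vehicle tumors, the vehicle maxima in tumors 0 and 3.

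The Gapdh and Eno1 values are uncertain because near-identical gene copies shared their reads. Of all reads on Gapdh and genes at least 95% identical to it, 63.5% were assigned to 87 other genes, and for Eno1 the share was 60.9% in 4 other genes. With the 25 copies at least 99% identical summed in, the Gapdh log2 fold change was -0.034 ± 0.11. With its 2 such copies, that of Eno1 was -0.26 ± 0.19 (SE). Tpi1, which interconverts the triose phosphates, is uncertain too. Its longest coding transcript had 146 estimated reads in vehicle tumor 2 and 0 in the other 7 tumors, and the gene total of 2.54 to 17.1 CPM came in those tumors from a shorter coding transcript and retained-intron transcripts. Its log2 fold change was -0.10 ± 0.65. Without Gapdh, Eno1 and Tpi1, 16 of 19 glycolysis genes had a fold change below 0, with a median of -0.14.

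Pyruvate kinase (Pkm) makes pyruvate, and lactate dehydrogenase A (Ldha) reduces it to lactate. Pkm had 751, 855, 612 and 733 CPM in SR59230A tumors 1 to 4, against 896, 862, 1001 and 738 CPM in vehicle tumors 0 to 3. SR59230A tumor 2 lay among the vehicle values and vehicle tumor 3 among the SR59230A values, with a log2 fold change of -0.24 ± 0.14. Ldha, a textbook HIF target, had 938, 1033, 761 and 931 CPM in SR59230A tumors 1 to 4, against 838, 919, 1071 and 838 CPM in vehicle tumors 0 to 3. The 2 groups covered nearly the same range, with a log2 fold change of -0.0011 ± 0.137. Its sign turned under small changes of processing.

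Pkm is spliced with one of a pair of mutually exclusive exons, M1 of adult muscle and brain or M2 of embryonic and dividing cells. They are printed here because the transcript values of the 2 isoforms rest on the bases that tell them apart. Both exons are 167 bases long on the plus strand of chromosome 9 (GRCm38, GENCODE annotation), and capitals mark the 64 bases that differ between them.
M1 exon, chr9:59675029-59675195: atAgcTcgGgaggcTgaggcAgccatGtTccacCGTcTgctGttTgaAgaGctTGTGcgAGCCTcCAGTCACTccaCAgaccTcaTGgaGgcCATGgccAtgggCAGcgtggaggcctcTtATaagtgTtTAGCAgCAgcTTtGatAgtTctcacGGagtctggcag
M2 exon, chr9:59675568-59675734: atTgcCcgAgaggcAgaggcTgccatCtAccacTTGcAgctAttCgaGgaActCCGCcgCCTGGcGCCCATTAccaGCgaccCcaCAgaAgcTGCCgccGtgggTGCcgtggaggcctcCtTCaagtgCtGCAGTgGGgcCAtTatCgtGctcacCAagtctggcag
The transcript with the M1 exon held 18.9, 19.4, 18.2 and 17.3% of the TPM of both isoforms in SR59230A tumors 1 to 4, against 19.8, 20.4, 21.0 and 17.3% in vehicle tumors 0 to 3. The M2 transcript was thus the major form in each tumor, and the M1 shares of the 2 groups overlapped.

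Levels of different genes were compared as TPM, in which a count is divided by transcript length, over the 8 tumors; the satellite-like transcripts lower all other TPM in some tumors, so only the order is read from them. The highest medians were those of Ldha (933 TPM), Aldoa (782 TPM), Gapdh (673 TPM) and Pkm (547 TPM), whose ranges over the tumors overlapped. Gpi1 (345 TPM), Eno1 (313 TPM), Slc16a3 (282 TPM), Pgam1 (282 TPM) and Pgk1 (221 TPM) followed, again with overlapping ranges. Below them stood Slc2a3 (135 TPM) and Pfkp (108 TPM), the glucose transporter and the phosphofructokinase gene with the highest median of their kind among the members, and at the low end Pfkfb4 (4.61 TPM) and Pdk1 (4.92 TPM).

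**Figure D3:**
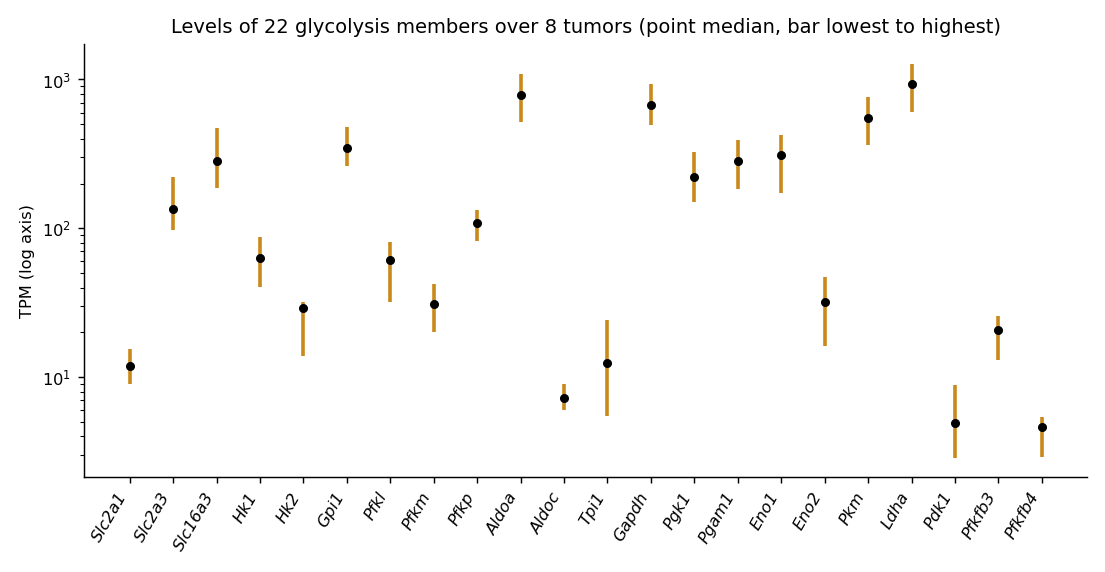
Levels of the 22 glycolysis genes in TPM (vertical log axis) in pathway order, with the median (point) and the lowest to highest value (bar) over all 8 tumors of both groups. Ldha, with a median of 933 TPM, and Aldoa, with 782 TPM, stand at the top, and the bar of Tpi1 spans 5.46 to 24.2 TPM, far below its neighbours Aldoa and Gapdh. Gapdh and Eno1 are drawn without their near-identical copies.

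Shares within an isozyme set do not depend on the scaling of TPM between tumors. Pfkl held 27.6, 30.6, 21.7 and 27.9% of the phosphofructokinase TPM in SR59230A tumors 1 to 4, against 33.9, 30.9, 34.7 and 29.0% in vehicle tumors 0 to 3. The SR59230A shares were lower except that tumor 2 lay above vehicle tumor 3, with means of 26.9 ± 3.75% in SR59230A tumors and 32.1 ± 2.62% in vehicle tumors (SD, n = 4 each; exact two-sided permutation p = 0.0571, adjusted over 8 shares p = 0.457). Pfkm held 16.5 ± 0.578% in SR59230A tumors and 14.8 ± 1.58% in vehicle tumors, and Pfkp 56.6 ± 4.32% in SR59230A tumors and 53.1 ± 3.44% in vehicle tumors.

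The remaining shares overlapped more widely, and none of the 8 passed the adjusted test. Hk2 held 26.2 ± 5.35% of hexokinase TPM in SR59230A tumors and 29.1 ± 3.00% in vehicle tumors, and Slc2a1 held 7.45 ± 1.38% of the Slc2a1 and Slc2a3 sum in SR59230A tumors and 8.19 ± 2.63% in vehicle tumors. Eno2 held 10.6 ± 7.62% of the Eno1 and Eno2 sum in SR59230A tumors and 9.89 ± 3.53% in vehicle tumors. Its highest share was 21.6% in SR59230A tumor 3. This sum leaves out the near-identical copies of Eno1, which held 60.9% of the reads on Eno1 and its copies. The Eno2 share would be lower with them counted. Aldoc held 1.18 ± 0.421% of aldolase TPM in SR59230A tumors and 0.85 ± 0.273% in vehicle tumors. Ldha made up at least 99.9% of the Ldha and Ldhb sum in each tumor.

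Pyruvate dehydrogenase kinase 1 (Pdk1) keeps pyruvate out of the mitochondria, and the bifunctional enzymes Pfkfb3 and Pfkfb4 set the level of fructose 2,6-bisphosphate, the activator of phosphofructokinase. Pdk1 had 5.54, 14.1, 8.86 and 9.72 CPM in SR59230A tumors 1 to 4, against 12.7, 5.90, 8.39 and 14.0 CPM in vehicle tumors 0 to 3. SR59230A tumor 2 and vehicle tumors 0 and 3 were high, SR59230A tumor 1 and vehicle tumor 1 low, and the log2 fold change was -0.10 ± 0.33. It was 0.096 without SR59230A tumor 1, 0.019 without vehicle tumor 0 and 0.094 without vehicle tumor 3. Pfkfb3 and Pfkfb4 had log2 fold changes of -0.0078 ± 0.12 and 0.0027 ± 0.15, with group means that differed by less than their SD.

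Among the HIF targets, Vegfa and Adm encode secreted factors, the vascular endothelial growth factor A and the vasodilator peptide adrenomedullin. Vegfa had 49.2, 61.7, 88.7 and 52.3 CPM in SR59230A tumors 1 to 4, against 74.9, 52.6, 54.7 and 103 CPM in vehicle tumors 0 to 3. SR59230A tumor 3 and vehicle tumor 3 were the highest of their groups and the other values overlapped, with a log2 fold change of -0.18 ± 0.25 that became 0.050 without vehicle tumor 3. Adm had 1.47, 4.33, 6.57 and 4.09 CPM in SR59230A tumors 1 to 4, against 9.57, 2.79, 4.47 and 10.8 CPM in vehicle tumors 0 to 3. This was the largest fold change of the list in size, -0.75 ± 0.52 (log2, SE; edgeR unadjusted p = 0.182), at 54 to 282 reads per tumor. SR59230A tumor 1 was the lowest and vehicle tumors 0 and 3 the highest, while vehicle tumors 1 and 2 lay within the SR59230A range.

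Carbonic anhydrase 9 (Car9), a surface enzyme that handles acid and a common marker of hypoxia, was close to the limit of detection. It had 0.382, 0.255, 0.341 and 0.240 CPM in SR59230A tumors 1 to 4, against 0.184, 0.307, 0.211 and 0.345 CPM in vehicle tumors 0 to 3. These levels rest on 5 to 15 reads per tumor, and a difference between the groups was not detectable at this depth.

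Bnip3 and Bnip3l encode receptors for mitophagy, and Higd1a a mitochondrial protein induced by hypoxia. Bnip3 had 35.4, 46.0, 65.9 and 63.1 CPM in SR59230A tumors 1 to 4, against 85.6, 43.2, 62.5 and 106 CPM in vehicle tumors 0 to 3. SR59230A tumor 1 was the lowest, vehicle tumors 0 and 3 were the highest, and the group means were 52.6 ± 14.4 CPM in SR59230A tumors and 74.3 ± 27.3 CPM in vehicle tumors (SD, n = 4 each). The log2 fold change was -0.50 ± 0.29 (edgeR unadjusted p = 0.122). For Bnip3l it was -0.089 ± 0.15 and for Higd1a 0.048 ± 0.13.

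The dioxygenase genes comprise the HIF prolyl hydroxylases Egln1 and Egln3, the collagen prolyl hydroxylase subunits P4ha1 and P4ha2, and the histone demethylase Kdm3a. Egln3 had 2.76, 0.976, 0.827 and 1.13 CPM in SR59230A tumors 1 to 4, against 1.51, 1.13, 0.875 and 2.07 CPM in vehicle tumors 0 to 3. SR59230A tumor 1 was the highest of the 8 and vehicle tumor 3 the next, at 17 to 101 reads per tumor, with a log2 fold change of 0.043 ± 0.45. Without SR59230A tumor 1 it was -0.50. Egln1 (-0.20 ± 0.11), P4ha1 (-0.31 ± 0.17), P4ha2 (-0.21 ± 0.14) and Kdm3a (-0.12 ± 0.20) had log2 fold changes below 0 with overlapping groups. Vehicle tumors 0 and 3 held the highest levels of P4ha1 (114 and 115 CPM), P4ha2 (98.4 and 112 CPM) and Kdm3a (90.0 and 95.1 CPM).

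Of the other targets, Mxi1, a partner of MAX that opposes MYC, had the smallest unadjusted p. It had 27.4, 36.5, 31.0 and 39.8 CPM in SR59230A tumors 1 to 4, against 48.0, 44.2, 40.8 and 39.2 CPM in vehicle tumors 0 to 3. Only SR59230A tumor 4 reached the vehicle range, just above vehicle tumor 3. The means were 33.7 ± 5.51 CPM in SR59230A tumors and 43.1 ± 3.88 CPM in vehicle tumors (SD, n = 4 each), a log2 fold change of -0.35 ± 0.14 (edgeR unadjusted p = 0.0263, adjusted p = 0.998; exact two-sided permutation p = 0.0571). It ran between -0.44 and -0.27 when single tumors were left out. Ndrg1, a stress-responsive gene, had a log2 fold change of -0.18 ± 0.37, and Ankrd37, an ankyrin repeat gene, one of -0.24 ± 0.26. For Ddit4 (REDD1), an inhibitor of mTORC1, it was 0.11 ± 0.16.

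The HIF alpha subunit genes themselves differed little. Hif1a had 129.9, 145, 102 and 162 CPM in SR59230A tumors 1 to 4, against 139.6, 139, 143 and 128 CPM in vehicle tumors 0 to 3. SR59230A tumors 3 and 4 were the lowest and the highest of the 8, with a log2 fold change of -0.027 ± 0.14, or 0.081 without SR59230A tumor 3. Epas1 (HIF-2 alpha) had 28.6, 17.9, 38.5 and 25.2 CPM in SR59230A tumors 1 to 4, against 24.6, 24.6, 18.5 and 31.7 CPM in vehicle tumors 0 to 3. The vehicle tumors lay inside the SR59230A range, with a log2 fold change of 0.15 ± 0.23, or -0.064 without SR59230A tumor 3. In TPM, Hif1a had a median of 57.6 and Epas1 one of 5.90.

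Set out by tumor, the HIF targets and the glycolytic enzymes followed different orders. Of 14 HIF targets, 9 were highest in vehicle tumor 3, where all 14 lay above their mean over the tumors, and 8 were lowest in SR59230A tumor 1. Of all genes 14.5% were highest in vehicle tumor 3 and 14.2% lowest in SR59230A tumor 1. The median deviation from each gene's mean was -0.34, -0.091, 0.042 and -0.047 in SR59230A tumors 1 to 4, and 0.25, -0.21, -0.089 and 0.44 in vehicle tumors 0 to 3 (log2 CPM). Vehicle tumors 1 and 2 thus lay within the range of the SR59230A tumors, and vehicle tumors 0 and 3 above it.

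For the 16 enzyme genes the median deviations were -0.11, 0.085, -0.27 and -0.11 in SR59230A tumors 1 to 4, and 0.19, 0.077, 0.22 and -0.036 in vehicle tumors 0 to 3. Here 10 of 16 were lowest in SR59230A tumor 3 (20.3% of all genes were), and 6 each were highest in vehicle tumors 0 (12.0%) and 2 (16.9%). SR59230A tumor 2 lay on the side of the vehicle tumors and vehicle tumor 3 on the side of the SR59230A tumors. The summed neuroblast markers were at 623, 551, 498 and 665 CPM in SR59230A tumors 1 to 4, against 886, 813, 814 and 632 CPM in vehicle tumors 0 to 3, lowest in tumor 3 of each group. The summed macrophage markers were at 525, 449, 767 and 599 CPM in SR59230A tumors 1 to 4, against 333, 450, 387 and 757 CPM in vehicle tumors 0 to 3, highest in tumor 3 of each group. This sum was carried by Mrc1 and Cd163. The other markers of the list (Adgre1, Cd68, Csf1r, C1qa, C1qb, C1qc and Lyz2) were higher in SR59230A tumor 1 than in SR59230A tumor 3, and the mean log2 CPM of all 9 was 5.28, 5.04, 5.10 and 4.58 in SR59230A tumors 1 to 4, against 4.34, 4.90, 4.72 and 4.98 in vehicle tumors 0 to 3. The part of these cells in the enzyme values was not tested.

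**Figure D4:**
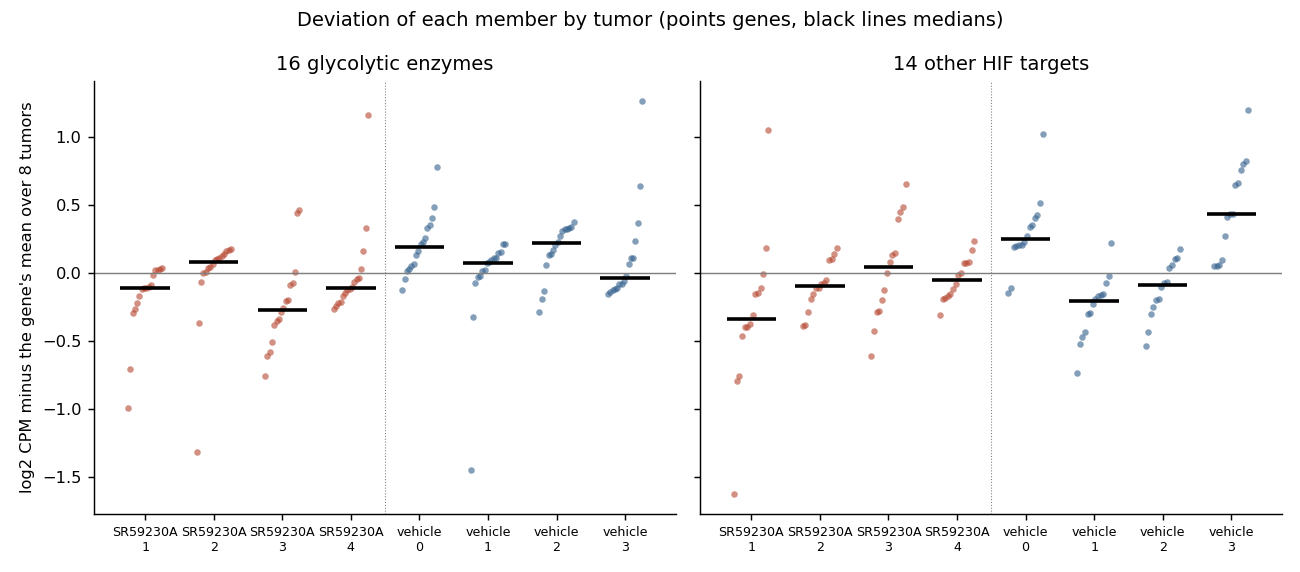
Log2 CPM of each gene minus its mean over the 8 tumors (vertical axis) for the 16 glycolytic enzymes (left panel) and 14 other HIF targets (right panel), by SR59230A tumor (red) and vehicle tumor (blue), with black lines at the medians. The HIF target medians are lowest in SR59230A tumor 1 (-0.34) and highest in vehicle tumors 3 (0.44) and 0 (0.25), and the enzyme median is lowest in SR59230A tumor 3 (-0.27).

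Both vehicle tumors 0 and 3 lay above both vehicle tumors 1 and 2 for 10 of 14 HIF targets and for 5 of 22 glycolysis genes, against 28.3% of all genes. For 7 of 38 members (Slc2a1, Eno2, Vegfa, Adm, Bnip3, P4ha2 and Ndrg1), vehicle tumors 0 and 3 and SR59230A tumor 3 were the highest 3 of the 8, against 7.9% of all genes. These 3 tumors were singled out after the values were seen. SR59230A tumor 3 and vehicle tumor 3 were the libraries with the largest mitochondrial shares (7.47% and 6.11%), and SR59230A tumor 4 and vehicle tumors 0 and 3 those with the largest satellite-like shares (19.8, 26.1 and 16.6%). SR59230A tumor 3 and vehicle tumor 3 also had the largest shares of reads on olfactory and vomeronasal receptor genes (0.477% and 0.644%). Their shares of reads on retained-intron transcripts were the largest too (4.20% and 3.76%), with SR59230A tumor 1 close at 3.71%. The part of these library differences in the HIF target values was not tested, beyond leaving libraries out.

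The lower level of the HIF targets in SR59230A tumors was not seen without vehicle tumor 3. Vehicle tumors 0 and 3 held the high values described above. A rise of the median on leaving them out therefore follows from those values and is no separate evidence. Without vehicle tumor 3 their median log2 fold change was 0.00019, with 7 of 14 below 0. Without vehicle tumors 0 and 3 and SR59230A tumor 4 it was 0.17, with 3 of 15 below 0, Car9 included, and without SR59230A tumors 1 and 2 it was -0.20, with 10 of 14 below 0. The glycolytic enzymes moved less, with 13 of 16 below 0 (median -0.22) without vehicle tumors 0 and 3 and SR59230A tumor 4, and with 14 of 16 below 0 (median -0.26) without SR59230A tumors 1 and 2.

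In the tumors numbered 1 and 2 the HIF targets had a median log2 fold change of 0.019, with 7 of 15 below 0, whereas between SR59230A tumors 3 and 4 and vehicle tumors 0 and 3 it was -0.34, with 13 of 14 below 0. For the enzymes these medians were -0.17 (15 of 16 below 0) and -0.25 (14 of 16). A test of the difference between the 2 tumor sets by edgeR (interaction of treatment with tumor set) gave an adjusted p under 0.05 for 0 of 38 members and for 0.0% of all genes, and an unadjusted p under 0.05 for 4 of 38 members and for 4.88% of all genes. These 4 were P4ha1, Ankrd37, Hk2 and Egln3, with adjusted p of 0.934 by edgeR. P4ha1 had log2 fold changes of -0.73 in the tumors numbered 0, 3 and 4 and 0.14 in those numbered 1 and 2. Slc2a1 (0.091), Pfkp (0.075), Pdk1 (0.47) and Vegfa (0.051) also lay above 0 in tumors 1 and 2, in contrast to their values over all tumors.

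**Figure D5:**
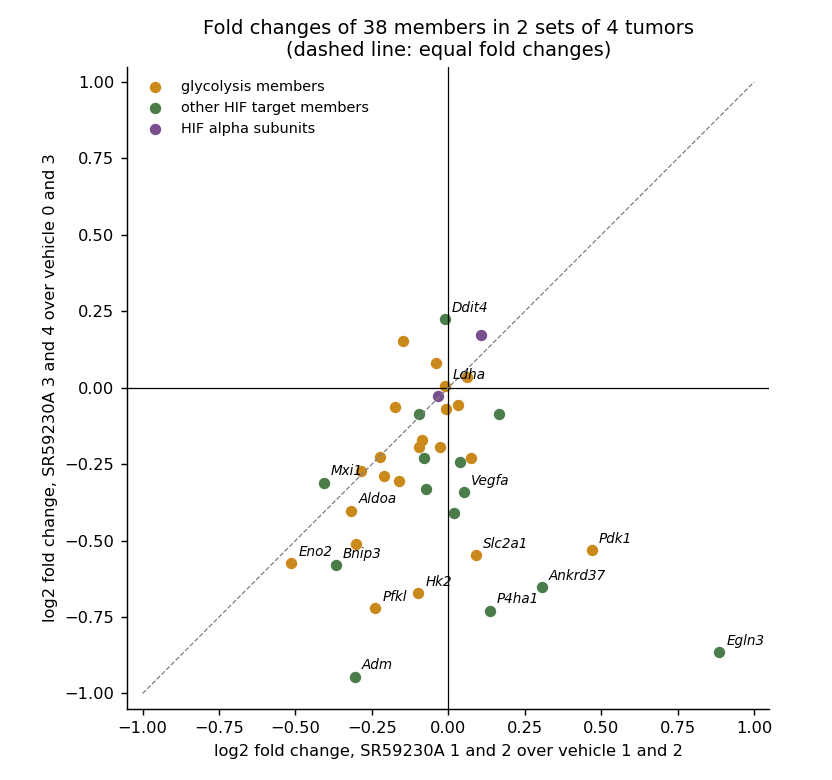
Log2 fold change of SR59230A over vehicle in the tumors numbered 1 and 2 (horizontal axis) and in those numbered 0, 3 and 4 (vertical axis) for 38 members, with a dashed line where both are equal. Most HIF targets lie below the dashed line, for example P4ha1 at 0.14 and -0.73, and Mxi1, at -0.41 and -0.31, lies on the other side of it.

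The hypoxia response element has the core RCGTG, where R is A or G, and the promoters of 3 members are printed to show where these letters stand in genes whose levels are described above. Ldha is the member with the highest median TPM before gene copies are summed in. Bnip3 is a HIF target with vehicle tumors 0 and 3 highest, and Pgk1 a member with only 2 matches. Each run holds 250 bases before and 50 after a RefSeq transcript start (GRCm38.p6), 5′ to 3′ along the gene. Capitals mark ACGTG or GCGTG on either strand, which reads as CACGT or CACGC when it lies on the other strand. The palindrome CACGTG, the E-box that other factors also bind, holds ACGTG on both strands and counts as 2 matches.
Ldha, chr7:46845554-46845853, plus strand, 7 matches: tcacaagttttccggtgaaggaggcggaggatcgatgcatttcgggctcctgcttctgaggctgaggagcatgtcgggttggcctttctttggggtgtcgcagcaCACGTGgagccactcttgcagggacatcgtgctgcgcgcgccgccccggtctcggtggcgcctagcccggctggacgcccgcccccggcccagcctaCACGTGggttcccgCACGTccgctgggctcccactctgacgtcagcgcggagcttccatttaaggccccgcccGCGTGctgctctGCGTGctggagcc
Bnip3, chr7:138909457-138909756, minus strand, 5 matches: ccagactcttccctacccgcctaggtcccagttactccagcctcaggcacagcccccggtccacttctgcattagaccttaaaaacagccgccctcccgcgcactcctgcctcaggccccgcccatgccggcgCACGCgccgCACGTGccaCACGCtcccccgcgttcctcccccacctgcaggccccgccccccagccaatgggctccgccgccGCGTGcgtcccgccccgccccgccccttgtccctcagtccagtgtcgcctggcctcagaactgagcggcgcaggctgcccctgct
Pgk1, chrX:106186850-106187149, plus strand, 2 matches: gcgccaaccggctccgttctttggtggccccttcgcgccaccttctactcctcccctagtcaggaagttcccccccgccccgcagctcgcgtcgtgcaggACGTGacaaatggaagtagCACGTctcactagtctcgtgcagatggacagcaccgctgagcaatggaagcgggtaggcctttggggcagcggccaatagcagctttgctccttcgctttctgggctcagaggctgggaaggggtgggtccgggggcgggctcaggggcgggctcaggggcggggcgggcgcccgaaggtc
The table held 53 promoters of 35 members. At least 1 match stood in 41 of these 53 promoters (77.4%), among them those of 32 of the 35 genes, and in 43.8% of all 32851 promoters of the table and 50.5% of the 20044 promoters of protein-coding genes. For the glycolysis genes the count was 26 of 34 promoters, and for the other HIF targets 14 of 18. A match is a description of the letters and not a binding site.

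Beyond the 39 members, 77 further genes of the pathway were listed, of which 69 passed the filter and 0 were called by edgeR or DESeq2. Of these, 34 had a fold change below 0 and 35 above, with a median of 0.0017, in contrast to the members' 31 below and 7 above. Other glycolysis genes, which include tissue-specific isozymes and pyruvate handling, lay below 0 in 9 of 24 cases, the HIF machinery (ARNT, VHL and its ligase partners, cofactors) in 6 of 11, and further HIF targets in 19 of 34. The HIF machinery stayed within -0.095 to 0.17 on the log2 scale.

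The 4 pathway genes with the smallest unadjusted p were Pgf, Fam162a, Slc2a4 and Tfrc. Pgf, placental growth factor of the VEGF family, had 11.1, 10.6, 10.7 and 8.96 CPM in SR59230A tumors 1 to 4, against 16.9, 15.2, 13.7 and 13.9 CPM in vehicle tumors 0 to 3. Fam162a, a mitochondrial protein induced by hypoxia, had 26.0, 24.3, 18.3 and 23.6 CPM in SR59230A tumors 1 to 4, against 32.5, 31.1, 32.4 and 33.8 CPM in vehicle tumors 0 to 3. In both genes all SR59230A tumors lay below all vehicle tumors, with log2 fold changes of -0.53 ± 0.13 and -0.49 ± 0.12 (edgeR unadjusted p = 0.00238 and 0.00265, adjusted p = 0.998 for both). These ran between -0.57 and -0.40 when single tumors were left out. Of the 69 tested pathway genes, 2 had all SR59230A tumors below all vehicle tumors and 2 above, against 1.29% and 1.32% of all genes. Picking genes by a small p favors such separation.

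Slc2a4, the insulin-responsive transporter GLUT4 of muscle and fat, had 1.15, 0.552, 0.876 and 0.446 CPM in SR59230A tumors 1 to 4, against 0.331, 0.164, 0.211 and 0 CPM in vehicle tumors 0 to 3. All SR59230A tumors lay above all vehicle tumors, at 0 to 42 reads per tumor and with a log2 fold change of 2.06 ± 0.67 (edgeR unadjusted p = 0.0116). SR59230A tumor 1 was also the library with the most reads of muscle markers, and the muscle forms Eno3, at 24.0 CPM against 6.32 to 9.45 CPM elsewhere, and Pgam2, at 4.86 CPM against 0 to 0.234 CPM, were highest there too, whereas Pfkm was not. The 5 adipocyte markers summed to 11.9, 11.3, 211 and 90.3 CPM in SR59230A tumors 1 to 4, against 20.7, 34.9, 49.0 and 29.1 CPM in vehicle tumors 0 to 3, with Lep at 0 in all SR59230A tumors. Their sum was thus highest in SR59230A tumors 3 and 4, where muscle markers were lower than in SR59230A tumors 1 and 2. It was carried there by Fabp4 and Cfd. The mean log2 CPM of the adipocyte list was also highest in SR59230A tumor 3 (2.97). In SR59230A tumor 4 (1.54) it lay slightly below vehicle tumor 2 (1.56). The part of muscle and adipocyte reads in the Slc2a4 values was not tested. Pfkfb1, a liver and muscle form of the bifunctional enzyme, was the other pathway gene with all SR59230A tumors above all vehicle tumors (log2 fold change 0.62 ± 0.26); it was named after its values were seen.

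Tfrc, the transferrin receptor, a target of HIF and of iron regulation, had 628, 595, 604 and 237 CPM in SR59230A tumors 1 to 4, against 128, 128, 183 and 368 CPM in vehicle tumors 0 to 3. The groups overlapped through SR59230A tumor 4 and vehicle tumor 3, and the log2 fold change was 1.35 ± 0.44 (edgeR unadjusted p = 0.0155, adjusted p = 0.998). It was opposite in sign to most of the HIF target members.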

How the data were processed

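Paired reads of 76 bases were assigned to transcripts by the authors with Salmon, and the deposited values of a tumor are an estimated count, a TPM and an effective length for each transcript. The transcriptome was GRCm38 by the methods and GRCm39 by the submitters' notes. Identifiers linked 115685 of the 116747 transcripts (99.1%) to genes of the GRCm38 GENCODE annotation, and gene sums of the deposited estimated counts were rounded to whole numbers. The deposited TPM were used for levels between genes and for shares within a tumor. A deposited table of normalized counts was not used. Genes passing edgeR's default filter were scaled by TMM and compared by edgeR 4.0.16 (R 4.3.3); CPM are TMM-scaled. Alternatives used DESeq2 1.42.0, limma 3.58.1 on log2(TPM + 1) or log2(TPM + 0.1), other scaling factors, filters, transcript sets and tumor sets. Single values were compared by exact permutation over 70 assignments. Scripts were tested on simulated data. The members and lists were chosen with earlier results of these data known. Values by tumor are given for 17 preselected members, the 6 with the smallest p and the 4 pathway genes with the smallest p.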

Additional observations from a re-analysis of the deposited data

Results flagged for a closer look

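Of 86 groups of 4 tumors examined, 3 held a tumor set apart from the other 3 by more than Dixon's 95% limit, and chance alone sets one apart in about 1 in 20 groups. Egln3 was at 2.76 CPM in SR59230A tumor 1, against 0.827 to 1.13 CPM in the other SR59230A tumors. Tfrc was at 237 CPM in SR59230A tumor 4, against 595 to 628 CPM in the other SR59230A tumors. Hk1 was at 159 CPM in vehicle tumor 3, against 194 to 202 CPM in the other vehicle tumors.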

How the results depend on the processing

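No member was called under any alternative run. edgeR called 0 genes over all tumors (696 at an unadjusted p under 0.05), DESeq2 37, and limma on log2(TPM + 0.1) 1. The count was 0 to 1 on leaving out single tumors (1 without SR59230A tumor 4), 1 in tumors 1 and 2, 6 in tumors 0, 3 and 4, and 2 without SR59230A tumors 1 and 2. The labels share numbers 1 to 3 between groups; with the replicate number as a block edgeR called 2 genes, and 1 over the same 6 tumors without the block. On a measure other than the log2 CPM themselves, same-numbered tumors correlated at -0.12, 0.67 and 0.66 (numbers 1, 2 and 3). For SR59230A tumors 2 and 3 the same-numbered value was the highest. SR59230A tumor 2 also correlated with vehicle tumor 1 at 0.64, and SR59230A tumor 1 correlated more with vehicle tumor 3 (0.090) than with vehicle tumor 1. The log2 CPM themselves correlated at 0.948, 0.974 and 0.954 in the same-numbered pairs. In log2 CPM, SR59230A tumor 1 correlated less with vehicle tumor 3 (0.922) than with vehicle tumor 1. The labels state no pairing, and the numbers were not taken to pair the tumors.

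The glycolysis median stayed between -0.24 and -0.097. That of the HIF targets was 0.17 without vehicle tumors 0 and 3 and SR59230A tumor 4, and -0.28 to 0.00019 on leaving out single tumors. The number of the 16 enzyme genes below 0 ran from 12 (TPM, either pseudocount) to 16 (with the block, or without SR59230A tumor 4). With TPM, 37.8% (pseudocount 1) and 37.6% (pseudocount 0.1) of all genes lay below 0. The Ldha fold change turned with upper-quartile factors (0.011), no filter (0.010), at least 50 reads (0.00082), transcript lengths (0.017), protein-coding transcripts (0.011), TPM with either pseudocount (0.068 and 0.068) and tumors 0, 3 and 4 (0.0043), and that of Gapdh with protein-coding transcripts (0.0062). Egln3 turned with a pseudocount of 0.1 (-0.0079), in tumors 0, 3 and 4 (-0.87) and without SR59230A tumors 1 and 2 (-0.49). Pdk1 turned with the block (0.0075) and without it (0.014). In tumors 1 and 2, Pdk1 (0.47), Slc2a1 (0.091), Pfkp (0.075) and Vegfa (0.051) turned, and so did, without vehicle tumors 0 and 3 and SR59230A tumor 4, Pdk1 (0.43), Slc2a1 (0.26), Pfkp (0.059), Vegfa (0.33) and Adm (0.20). On leaving out single tumors the ranges were -0.065 to 0.085 for Ldha, -0.35 to 0.096 for Pdk1, -0.50 to 0.29 for Egln3, -0.40 to 0.050 for Vegfa, -0.13 to 0.081 for Hif1a and -0.064 to 0.31 for Epas1. The Pfkm share differed by 3.33 percentage points with protein-coding transcripts, against 1.65. The causes were not tested. Of 644 alternatives for single genes and shares, 608 counted as the same, 35 as reversed and 1 as moved. For single genes, the same meant an unchanged direction and call. For a share it meant only a group difference within the larger group SD of the main one, whatever its sign. TPM scaling moved the median of all genes to 0.052 and 0.059. With 4 tumors per group, log2 changes near those of the members cannot be told from the spread.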
